A study of Homo sapiens with 6 samples.

Results

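Mitochondrial ribosomal protein genes were taken as all rows of the count table whose symbol is MRPL or MRPS followed by a number and an optional letter, with pseudogenes left out. The rule found 78 genes among the 58870 of the table, and all 78 were among the 15088 genes tested. By their known place in the ribosome, 51 code for proteins of the large subunit, 26 for proteins of the small subunit, and 1, MRPS36, for a protein now assigned to the 2-oxoglutarate dehydrogenase complex. Symbols do not always give the subunit, since MRPS30 and MRPS18A are large subunit proteins. RNA was measured by total RNA-seq, with ribosomal RNA depleted, in HEK-293T, an immortalized human embryonic kidney line. There were 3 WT libraries (genotype Thumpd+/+) and 3 THUMPD1 KO libraries (Thumpd-/-), all grown in DMEM with no treatment named in the labels. THUMPD1 helps the acetyltransferase NAT10 to acetylate a cytidine of leucine and serine tRNAs, and the comparison asks which transcripts differ when it is lost. KO cells were made with CRISPR-Cas9 and a final sort of single cells, so features of the clone and of the genotype cannot be told apart. No label says that replicates came from separate cultures, so p values measure only the spread between these libraries.

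Mitochondria translate the few proteins coded by their own DNA on ribosomes of their own, which combine rRNAs transcribed in the organelle with proteins that are all coded in the nucleus, made in the cytosol and imported. Some of these proteins have a bacterial counterpart and others are found in mitochondria alone. Nuclear respiratory factor NRF1, ETS factors such as GABPA, and YY1 are known for binding near the start sites of many nuclear genes for mitochondrial proteins.

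THUMPD1 itself stood at 80.9 ± 3.65 CPM (counts scaled to the same library total) in WT and at 11.0 ± 0.918 CPM in KO (mean ± SD, n = 3), with a log2 fold change of -2.87 (SE 0.0845, limma-voom adjusted p = 3.17e-08). An exact two-sided permutation test gave p = 0.1, the smallest that 3 against 3 libraries allow. Libraries held 32225646 to 44099898 expected counts, and members had between 567 and 11937 counts in a library. KRT18, VIM, KRT8, NEFL, INA and NEFM were detected, whereas PTPRC, CD3E, ALB, PECAM1, UMOD and NPHS1 had at most 4 counts in a library. COL1A1, a fibroblast marker looked for as near 0, was detected too, at 14.3 ± 2.32 CPM in WT and 10.3 ± 2.04 CPM in KO. Of the markers tested, KRT18, NEFM and COL1A1 were lower in KO and NEFL and INA higher. The largest of these changes was that of NEFM, a neurofilament gene, from 35.3 to 5.33 CPM (log2 fold change -2.75, limma-voom adjusted p = 1.3e-05). KRT18, a keratin gene, and COL1A1, a collagen gene, fell by 0.53 and 0.48 on the log2 scale, and NEFL and INA rose by 0.31 and 0.33. AQP1, a water channel of kidney tubules, was below 1 CPM in both genotypes. The part of these changes in the results was not tested. WT replicate 1 stood apart from the other WT libraries. Its counts differed from those of WT replicates 2 and 3 by a chi-square of 18.0 and 18.3 per degree of freedom, against 4.29 between the latter. Counts of calls and the median change are therefore also given without it, whereas sums and counts of non-overlap include it.

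Mitochondrial ribosomal protein genes differed little between the genotypes, and most of those called were higher in KO. In KO cells 15 of 78 were called, at a Benjamini-Hochberg adjusted p below 0.05 in limma-voom, or 19.2% against 26.7% of all tested genes. Of these, 12 were higher, or 15.4% against 13.7% of all tested genes. The other 3 were lower, or 3.85% against 13.0%. With the replicate number as a block, 23 members were called (29.5%), 19 higher (24.4%) and 4 lower (5.13%), against 35.1% of all tested genes called, 18.4% higher and 16.7% lower. Scaling moved the balance of directions, with 9 higher (11.5%) and 4 lower (5.13%) under TMM library sizes, against 11.97% and 13.9% of all tested genes. Among all 78 members, 60 had a log2 fold change above 0 and 18 below, beside 8086 above and 7002 below among the 15088 tested genes. The median was 0.07 beside 0.016 over all tested genes. Without WT replicate 1 the median was 0.01. Values of the genotypes did not overlap for 31 members, 25 higher and 6 lower in KO, or 39.7% against 42.9% of all tested genes. Among all 15088 tested genes, 3500 were higher and 2979 lower without overlap. The share called higher lay close to its background without the block and above it with the block. The shares called lower and called in either direction lay below theirs. Lack of overlap was more frequent than its background for higher members and less frequent for lower ones.

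No member changed 2-fold or more, and in the members' range of mean CPM 22 of 8198 tested genes did. Log2 fold changes ran from -0.43 for MRPL28 to 0.31 for MRPS11. The 95% confidence interval of the change lay within 1.5-fold either way for all 78 members, beside 96.2% of tested genes in that range. It lay within 1.25-fold for 62 members (79.5%), beside 75.8% of tested genes in that range. The narrow span of changes was thus shared by most genes of similar CPM.

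**Figure D1:**
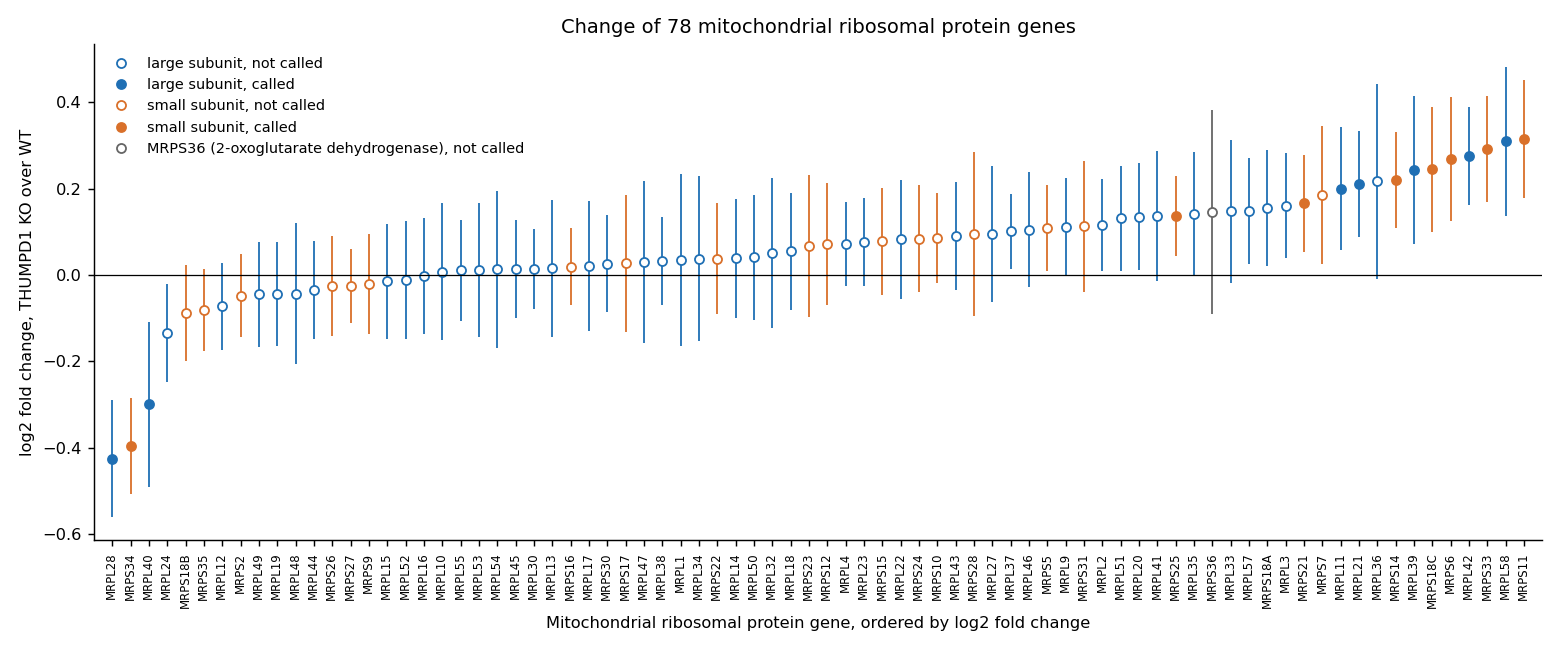
Log2 fold change of each gene in THUMPD1 KO over WT on the vertical axis, with genes ordered by it on the horizontal axis. Points are limma-voom estimates, lines are 95% confidence intervals, colours give the subunit, and filled points are the 15 called genes, 3 at the left end and 12 to the right.

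Promoter windows are printed for the 3 members called lower and the 3 called highest, so that the letters at their start sites can be read beside their values. Each window runs from 250 bases before to 50 bases after the start given by RefSeq on GRCh38.p14, 5′ to 3′ on the gene's strand. Capitals mark matches on either strand to an NRF1 core (GCGCANGCG), an ETS core (CCGGAAG) or a YY1 core (ATGGCGG). The first 3 windows belong to members that were lower in KO, at chr16:370489-370788 (minus strand), chr16:1773085-1773384 (minus strand) and chr22:19432295-19432594 (plus strand).
MRPL28: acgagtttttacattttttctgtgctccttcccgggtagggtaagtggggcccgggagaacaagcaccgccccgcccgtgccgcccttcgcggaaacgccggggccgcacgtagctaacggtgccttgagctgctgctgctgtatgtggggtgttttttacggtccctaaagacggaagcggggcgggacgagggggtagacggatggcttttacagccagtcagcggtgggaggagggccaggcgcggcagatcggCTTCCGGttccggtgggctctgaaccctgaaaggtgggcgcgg
MRPS34: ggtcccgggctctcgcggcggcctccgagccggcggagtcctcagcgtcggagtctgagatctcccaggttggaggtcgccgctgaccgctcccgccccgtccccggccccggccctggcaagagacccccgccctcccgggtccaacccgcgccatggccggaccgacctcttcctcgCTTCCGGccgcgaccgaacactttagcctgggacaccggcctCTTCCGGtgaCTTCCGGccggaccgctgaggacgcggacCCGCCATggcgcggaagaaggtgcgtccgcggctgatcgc
MRPL40: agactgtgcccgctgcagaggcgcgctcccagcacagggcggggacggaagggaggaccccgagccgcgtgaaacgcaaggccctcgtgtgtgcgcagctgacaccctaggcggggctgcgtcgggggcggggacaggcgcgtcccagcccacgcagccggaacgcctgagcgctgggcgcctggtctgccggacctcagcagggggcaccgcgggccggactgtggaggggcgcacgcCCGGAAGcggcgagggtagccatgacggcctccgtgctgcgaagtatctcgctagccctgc
The next 3 belong to members that were higher, at chr7:141014903-141015202 (minus strand), chr17:75012420-75012719 (plus strand) and chr15:88467458-88467757 (plus strand).
MRPS33: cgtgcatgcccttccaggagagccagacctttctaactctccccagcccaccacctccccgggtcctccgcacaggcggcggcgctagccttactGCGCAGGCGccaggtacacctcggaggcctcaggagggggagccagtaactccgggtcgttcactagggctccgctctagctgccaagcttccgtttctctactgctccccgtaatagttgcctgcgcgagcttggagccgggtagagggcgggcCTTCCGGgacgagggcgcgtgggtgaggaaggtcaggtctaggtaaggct
MRPL58: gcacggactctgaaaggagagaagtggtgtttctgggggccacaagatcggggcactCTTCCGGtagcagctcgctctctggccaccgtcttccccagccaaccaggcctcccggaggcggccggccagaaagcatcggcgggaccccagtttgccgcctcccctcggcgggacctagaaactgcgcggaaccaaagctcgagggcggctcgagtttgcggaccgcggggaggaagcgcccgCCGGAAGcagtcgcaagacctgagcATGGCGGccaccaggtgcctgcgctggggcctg
MRPS11: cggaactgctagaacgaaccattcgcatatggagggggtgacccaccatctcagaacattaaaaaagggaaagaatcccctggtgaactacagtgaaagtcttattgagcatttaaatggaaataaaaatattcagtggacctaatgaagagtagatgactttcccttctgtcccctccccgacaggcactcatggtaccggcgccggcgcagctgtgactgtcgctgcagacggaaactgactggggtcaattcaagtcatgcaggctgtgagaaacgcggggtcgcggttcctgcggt
The window of MRPS34 held 3 ETS cores and 1 YY1 core, and those of MRPL28 and MRPL40 held 1 ETS core each. MRPS33 had 1 NRF1 core and 1 ETS core, MRPL58 had 2 ETS cores and 1 YY1 core, and MRPS11 had none of these letters.

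Of the 78 members, 69 had a window in the RefSeq table. An ETS core was found in 29 of them (42.0%), against 19.5% of windows of tested protein-coding genes and 10.7% of all 27305 windows. A YY1 core was found in 24 (34.8%), against 10.4% and 5.72%. For the NRF1 core the shares lay closer together, at 13 windows (18.8%) against 15.1% and 8.05%. In all, 51 members (73.9%) had at least 1 of the 3 cores, against 37.6% of tested protein-coding genes. The YY1 core holds the letters of a start codon on one strand, and the matches of MRPS34 and MRPL58 began 10 and 17 bases after the start. Among members with a window, 6 of 11 called higher, 3 of 3 called lower and 42 of 55 not called had a core, so the cores were found among both directions of change. Motifs were counted separately, no matches overlapped in the windows printed, and a match describes letters, not a bound factor.

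All 3 members called lower lay in regions where other genes were lower too. MRPL28, a large subunit protein with a bacterial counterpart (chromosome 16, 366969 to 371289, minus strand), was at 56.3, 61.0 and 64.5 CPM in WT and at 44.2, 45.2 and 45.6 CPM in KO. Every KO library was below every WT library. On the log2 scale the KO differed by -0.43 (SE 0.0617, limma-voom adjusted p = 0.000688), and the 46 other tested genes within 1 Mb had a median of -0.47. MRPS34, a small subunit protein found in mitochondria alone (chromosome 16, 1771890 to 1773150, minus strand), was at 88.0, 95.7 and 94.8 CPM in WT and at 68.5, 71.6 and 72.6 CPM in KO. Here too the genotypes were clearly apart. It fell by 0.40 on the log2 scale (SE 0.0503, limma-voom adjusted p = 0.000304), beside a median of -0.36 over 72 neighbours. Both genes lie near the start of chromosome 16, whose 726 tested genes had a median of -0.06. THUMPD1, the edited gene, lies on chromosome 16 as well, and a relation of these changes to the edit was not tested.

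MRPL40, a large subunit protein found in mitochondria alone, lies on chromosome 22 (19432545 to 19436075, plus strand). It was at 33.3, 35.9 and 34.2 CPM in WT and at 32.4, 27.4 and 23.8 CPM in KO. KO replicate 1 was only just below the lowest WT library, and the KO libraries differed more among themselves than the WT ones. limma-voom put the log2 change at -0.30 (SE 0.0869, adjusted p = 0.0263), beside -0.37 over 38 neighbours and -0.34 over the 375 tested genes of chromosome 22. Leaving out WT replicate 2 or 3 or KO replicate 2 or 3 ended the call, with adjusted p between 0.0594 and 0.0921. Leaving out members on chromosomes 2, 16 and 22 left 67, with a median log2 fold change of 0.08. Of the 67, 12 were called (17.9%, against 26.7% of all tested genes), all higher (against 13.7% called higher). That none was lower follows from this choice, since all 3 members called lower lie on chromosomes 16 and 22. None of the 8 members on chromosome 2 was called. Whether the number of copies of these regions differs between the cells was not tested.

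**Figure D2:**
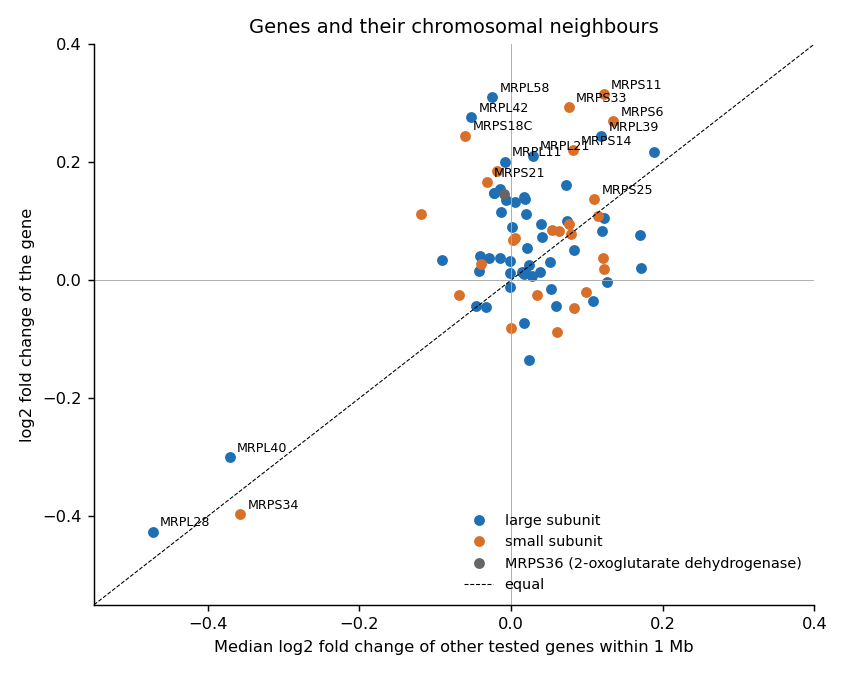
Log2 fold change of each of the 78 genes (vertical axis) against the median log2 fold change of the other tested genes within 1 Mb (horizontal axis), with the dashed line where both are equal and called genes named. MRPL28, MRPS34 and MRPL40 lie apart at the lower left, with neighbour medians of -0.47, -0.36 and -0.37.

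Across all 78 members the change and the neighbour median had a Pearson r of 0.56 and a Spearman rho of 0.11, and across the 75 off chromosomes 16 and 22 these were 0.06 and 0.002. The relation was therefore carried by the 3 members called lower. Neighbours of members called higher had medians on both sides of 0, from -0.06 around MRPS18C to 0.13 around MRPS6. MRPS14 and MRPS21 lie on chromosome 1, MRPL11 and MRPL21 on 11, MRPL39 and MRPS6 on 21, and the other 6 on 3, 4, 7, 12, 15 and 17. Over the 182 tested genes of chromosome 21 the median change was 0.11 on the log2 scale, and the genes within 1 Mb had 0.12 around MRPL39 (4 genes) and 0.13 around MRPS6 (20 genes). The part of these regions in the calls of MRPL39 and MRPS6 was not tested.

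Of the 12 members called higher, 7 belong to the small subunit. MRPS11, with a bacterial counterpart on the platform of the subunit, was at 37.6, 43.6 and 41.9 CPM in WT and at 51.0, 50.9 and 50.8 CPM in KO. The KO libraries were almost equal, and all were above the WT libraries. Its log2 fold change of 0.31 (SE 0.0620, limma-voom adjusted p = 0.00404) was the highest of the 78. MRPS33, found in mitochondria alone, was at 32.1, 34.2 and 33.7 CPM in WT and at 42.8, 40.8 and 38.9 CPM in KO. The genotypes were apart by more than the spread within either. It rose by 0.29 on the log2 scale (SE 0.0557, limma-voom adjusted p = 0.00332). MRPS14, with a bacterial counterpart, was at 45.6, 46.1 and 43.9 CPM in WT and at 55.5, 52.5 and 50.2 CPM in KO. Again no libraries overlapped, with a log2 fold change of 0.22 (SE 0.0507, limma-voom adjusted p = 0.00914). The calls of these 3 genes were kept in all 17 alternative settings.

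Calls of the other 4 small subunit genes were lost when single libraries were left out. MRPS6, with a bacterial counterpart, was at 31.0, 34.9 and 34.8 CPM in WT and at 39.1, 41.2 and 40.6 CPM in KO. WT replicate 1 was the lowest, and even the highest WT library was below all KO libraries. By limma-voom the log2 change came to 0.27 (SE 0.0653, adjusted p = 0.0116), and without KO replicate 2 the adjusted p was 0.0557. MRPS21, with a bacterial counterpart, was at 63.9, 69.2 and 65.7 CPM in WT and at 78.5, 73.5 and 71.9 CPM in KO. The gap between genotypes was small beside the spread within KO. It changed by 0.17 on the log2 scale (SE 0.0511, limma-voom adjusted p = 0.0341). MRPS25, found in mitochondria alone, was at 139, 135 and 129.7 CPM in WT and at 154, 152 and 147 CPM in KO. It had the smallest change among the called members, with a log2 fold change of 0.14 (SE 0.0422, limma-voom adjusted p = 0.0346). Both of these calls were lost without any 1 of 5 libraries. For MRPS21 these were all but WT replicate 2 (adjusted p 0.0531 to 0.101), and for MRPS25 all but WT replicate 1 (0.0536 to 0.161). MRPS21 was not called under TMM library sizes, edgeR or DESeq2 either.

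MRPS18C is 1 of 3 paralogs of a single bacterial small subunit protein, of which MRPS18B is also in the small subunit and MRPS18A in the large one. In the grouping by origin, MRPS18C was counted as having a bacterial counterpart. MRPS18A and MRPS18B were counted as found in mitochondria alone, although they share that counterpart. MRPS18C was at 27.2, 30.8 and 29.5 CPM in WT and at 34.0, 35.6 and 33.6 CPM in KO. No KO library reached down to a WT library, with a log2 fold change of 0.24 (SE 0.0657, limma-voom adjusted p = 0.0187). The call was lost without KO replicate 2 (adjusted p = 0.0849). MRPS18A was at 30.7, 32.0 and 31.9 CPM in WT and at 34.0, 37.3 and 33.6 CPM in KO, also without overlap. Its log2 fold change of 0.15 (SE 0.0613) was not called (limma-voom adjusted p = 0.0852) but passed with the replicate block (adjusted p = 0.0381). MRPS18B was at 45.3, 43.7 and 47.3 CPM in WT and at 42.9, 41.8 and 43.6 CPM in KO. The KO values lay just below the WT values, with a log2 fold change of -0.09 (SE 0.0509) that was not called (limma-voom adjusted p = 0.225). The paralogs thus had values of both signs, and differences between their changes were not tested.

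Of the 5 large subunit genes called higher, MRPL58 had the largest change. It codes for a protein of the release factor family that hydrolyses peptidyl-tRNA on the ribosome. MRPL58 was at 18.8, 22.1 and 21.1 CPM in WT and at 24.6, 25.5 and 26.0 CPM in KO. All KO libraries were above all WT libraries, with a log2 fold change of 0.31 (SE 0.0788, limma-voom adjusted p = 0.0146). Without KO replicate 2 or 3 the adjusted p was 0.0590 to 0.0630. MRPL42, found in mitochondria alone, was at 208, 231 and 235 CPM in WT and at 281, 271 and 270.1 CPM in KO. The genotypes were well apart, and the call was kept in all 17 alternatives. In limma-voom this was a log2 change of 0.28 (SE 0.0514, adjusted p = 0.00295).

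MRPL39, found in mitochondria alone, was at 30.3, 36.0 and 36.5 CPM in WT and at 40.2, 41.2 and 39.3 CPM in KO. WT replicate 1 was well below the other 2 WT libraries. On the log2 scale the KO differed by 0.24 (SE 0.0777, limma-voom adjusted p = 0.0393), and leaving out WT replicate 1 or any 1 KO library ended the call (adjusted p 0.0614 to 0.136). MRPL21, with a bacterial counterpart, was at 25.6, 26.9 and 26.6 CPM in WT and at 30.3, 29.9 and 30.8 CPM in KO. Both groups were tight, with a log2 fold change of 0.21 (SE 0.0558, limma-voom adjusted p = 0.0176). Without KO replicate 2 or 3 its adjusted p was 0.0573 to 0.0627. MRPL11, the counterpart of a bacterial protein at the base of the ribosomal stalk, was at 48.2, 56.7 and 53.1 CPM in WT and at 60.1, 61.8 and 58.7 CPM in KO. The highest WT and the lowest KO library were close. Its log2 fold change of 0.20 (SE 0.0642, limma-voom adjusted p = 0.0403) lost its call without any 1 library but WT replicate 2 (adjusted p 0.0742 to 0.146). Under TMM library sizes, edgeR (adjusted p = 0.0691 and 0.0785) and DESeq2 neither MRPL39 nor MRPL11 was called, and under DESeq2 MRPL21 was not.

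**Figure D3:**
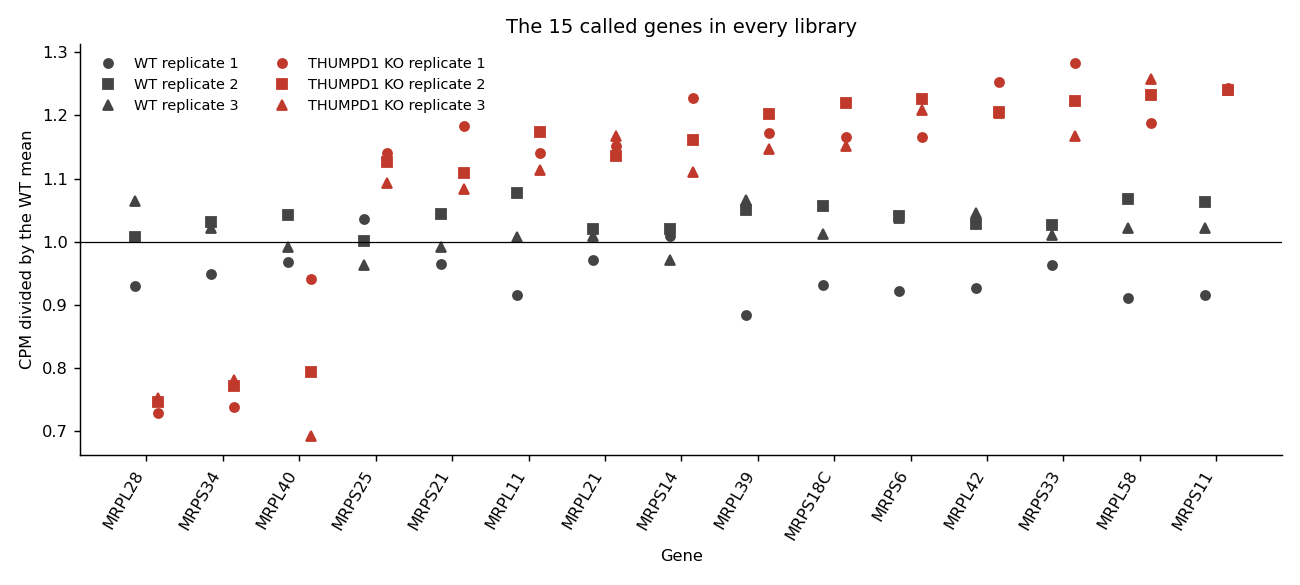
CPM of the 15 called genes in each of the 6 libraries, divided by the mean of the 3 WT libraries (vertical axis, linear), with grey points for WT, red points for THUMPD1 KO and shapes for the replicate number. No gene shows overlap between genotypes, and WT replicate 1 is the lowest WT library for most genes. Relative to the WT mean, KO means are lowest for MRPL28 (60.6 CPM in WT, 45.0 CPM in KO) and highest for MRPS11 (41.0 CPM in WT, 50.9 CPM in KO).

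Members that were not called included some with changes as large as called ones. MRPL36, with a bacterial counterpart, was at 17.8, 22.7 and 22.8 CPM in WT and at 23.5, 24.6 and 24.1 CPM in KO. WT replicate 1 was well below the other 5 libraries, and the log2 fold change of 0.22 had an SE of 0.103 (limma-voom adjusted p = 0.143, 0.0450 with the replicate block). Over the 17 alternatives the change of MRPL36 ran from 0.07 to 0.29. MRPS7, with a bacterial counterpart, was at 53.4, 62.3 and 62.8 CPM in WT and at 63.2, 69.8 and 68.6 CPM in KO. WT replicate 1 and KO replicate 1 were each the lowest of their group. limma-voom put the log2 change at 0.19 (SE 0.0728, adjusted p = 0.0840, 0.00787 with the replicate block). MRPL3, with a bacterial counterpart, was at 162, 186 and 179 CPM in WT and at 188, 207 and 199 CPM in KO, without overlap by a narrow gap. The log2 fold change of 0.16 (SE 0.0548) had a limma-voom adjusted p of 0.0509, and 0.00698 with the replicate block. Without WT replicate 2 or KO replicate 1 the adjusted p of MRPL3 was 0.0311 to 0.0416.

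MRPS36 was at 16.2, 20.1 and 20.2 CPM in WT and at 19.7, 22.2 and 19.1 CPM in KO. These ranges overlapped, and the log2 fold change of 0.15 had the largest SE of the 78 members (0.107, limma-voom adjusted p = 0.342). The largest decrease among members not called was that of MRPL24 on the log2 scale, at -0.13 (SE 0.0513, limma-voom adjusted p = 0.0753, 0.0420 with the replicate block).

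By subunit, 7 of 51 large subunit genes were called, 5 higher and 2 lower, with a median log2 fold change of 0.04. Of the 26 small subunit genes 8 were called, 7 higher and 1 lower, with a median of 0.08. Among genes with a bacterial counterpart 8 of 46 were called (17.4%), and among those found in mitochondria alone 7 of 31 (22.6%), against the 26.7% of all tested genes. By subunit the shares were 13.7% for large and 30.8% for small. After removal of the trend with GC and length these came to 25.5% and 30.8%, against 29.4% of all tested genes. The order of the medians then turned (0.09 for large, 0.06 for small). Without KO replicate 2 the calls were 2 in the large and 4 in the small subunit (3.92% and 15.4%, against 17.65% of all tested genes). Differences between these groups were not tested. The upward median rested on WT replicate 1. Without it, 42 members had a log2 fold change above 0 and 36 below, and the median was 0.01 beside 0.01 over all tested genes. There 12 were still called (15.4%, against 28.1% of all tested genes), 9 higher (11.5%, against 14.4%) and 3 lower (3.85%, against 13.7%).

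Summed over the 78 genes, the level was 4081, 4392 and 4337 CPM in WT and 4453, 4512 and 4449 CPM in KO. WT replicate 1 was the lowest, and the 3 KO libraries were close to each other and above WT replicates 2 and 3. Means were 4270 ± 166 CPM in WT and 4471 ± 35.2 CPM in KO (SD, n = 3). Large subunit genes went from 2742 ± 121 to 2879 ± 27.9 CPM and small subunit genes from 1509 ± 42.4 to 1572 ± 7.72 CPM. In bulk RNA a changed number of cells of some kind and a changed amount of RNA per cell cannot be told apart.

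**Figure D4:**
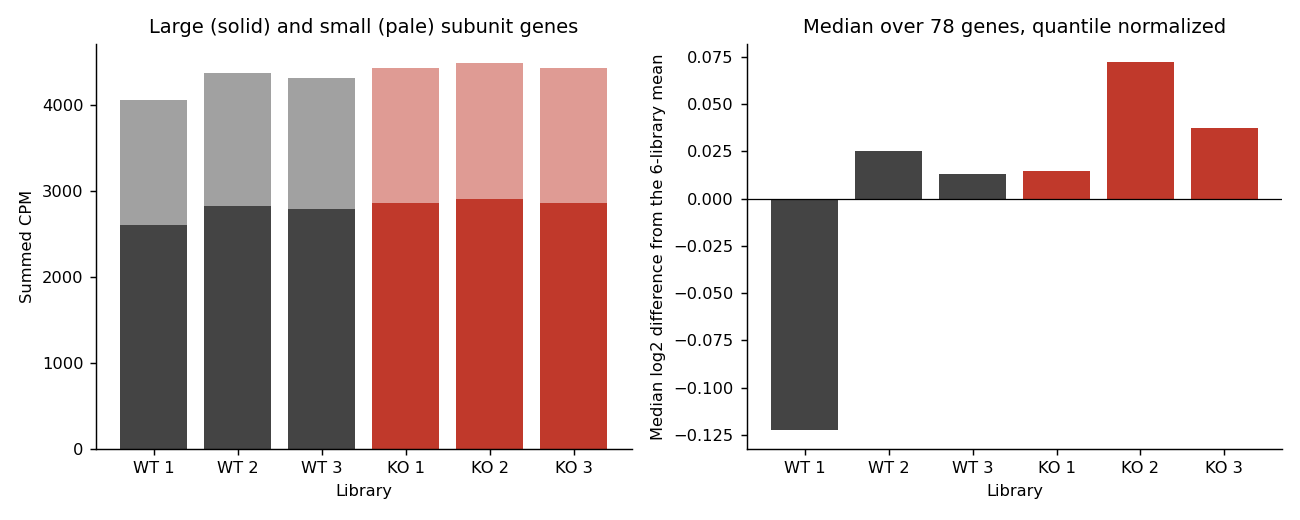
Left, summed CPM of large subunit genes (solid) and small subunit genes (pale) in each library, grey for WT and red for THUMPD1 KO. Right, the median over 78 genes of each library's quantile normalized log2 value minus the mean of the 6 libraries, which is -0.12 in WT replicate 1 and between 0.01 and 0.07 in the other 5 libraries.

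Levels per kilobase of exon in WT, counted over the union of all annotated exons of a gene, ran from 2.70 to 98.8 CPM per kilobase with a median of 17.9, against a median of 5.87 over tested protein-coding genes. Highest on this scale were MRPL12, the stalk protein (98.8 ± 3.86), MRPS34 (85.0 ± 3.83) and MRPL37, found in mitochondria alone (70.0 ± 0.364). MRPL12 and MRPS34 were apart by more than their spread, as were MRPS34 and MRPL37. Per kilobase of the main transcript the order turned, with MRPL37 (120.3) and MRPL3 (103) above MRPL12 (98.8), MRPS24 (97.5) and MRPS34 (93.0). MRPL12 was at 96.7, 104 and 98.2 CPM in WT and at 96.3, 91.9 and 96.7 CPM in KO, with overlap. MRPL37 was at 179, 179 and 177 CPM in WT and at 196, 187 and 193 CPM in KO, without overlap but not called (log2 fold change 0.10, SE 0.0396, limma-voom adjusted p = 0.0830).

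The lowest levels per kilobase of exon were those of MRPS22, found in mitochondria alone (2.70 ± 0.0693), MRPS5, with a bacterial counterpart (4.97 ± 0.149), and MRPS18C (5.99 ± 0.378). Annotated exons of MRPS22 cover 16385 bases although its main transcript has 1205, so this order depends on the annotation. Per kilobase of the main transcript MRPS22 was at 36.7 CPM in WT, and the lowest member was MRPS33 at 7.92. MRPS22 was at 43.2, 44.0 and 45.4 CPM in WT and at 47.0, 47.3 and 41.9 CPM in KO, with overlap. MRPS5 was at 67.1, 70.6 and 67.1 CPM in WT and at 72.8, 74.7 and 73.8 CPM in KO, which did not overlap but gave a limma-voom adjusted p of 0.0988 (log2 fold change 0.11, SE 0.0450).

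Many of these genes share their start region with a gene on the opposite strand. A tested protein-coding partner whose start lay within 1000 bases on the other strand was found for 24 of 78 members (30.8%), against 16.2% of tested protein-coding genes. Among the 15 called members 5 had such a partner, and 2 of the 5 partners were called, both in the member's direction. These are few genes to set beside the 26.7% of all tested genes called. EME2, beside MRPS34, fell by 0.53 on the log2 scale (SE 0.0641, limma-voom adjusted p = 0.000214), and HELQ, a helicase gene beside MRPS18C, rose by 0.28 (SE 0.0820, limma-voom adjusted p = 0.0285). Partners of members not called included PPP1R10, which rose by 0.17 (limma-voom adjusted p = 0.0172) beside MRPS18B at -0.09. Another was NDUFS6, which rose by 0.18 (limma-voom adjusted p = 0.0171) beside MRPL36 at 0.22. MRPS11 and MRPL46, whose starts are 63 bases apart in GENCODE, form the one pair of 2 members. RefSeq sets the start of MRPS11 further into the gene, and the window printed above follows RefSeq. MRPL46 was at 40.8, 43.1 and 40.5 CPM in WT and at 43.1, 47.9 and 43.1 CPM in KO. By limma-voom the log2 change came to 0.10 (SE 0.0604, adjusted p = 0.225) beside the 0.31 of MRPS11, and the difference between them was not tested.

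In the annotation 24 members overlap another gene on their own strand, 40 on the opposite strand, and 29 overlap none. MRPL28 overlaps PGAP6 on its own strand, and MRPS34 overlaps EME2 on the opposite one. The libraries keep strand, but whether counting used it is not stated in the sources used here, so reads of such pairs may have been shared. Among the 29 members without overlap 5 were called (17.2%, against 26.7% of all tested genes), all higher (against 13.7% called higher). Of 75 pseudogenes named for 34 members, 23 had any count and 3 were tested. MRPS31P5 held 24.2% of the counts of MRPS31 and itself together, MRPL45P2 held 8.41% with MRPL45 and MRPS31P4 held 5.08% with MRPS31. RSEM may have divided reads among such copies. Adding pseudogene counts to their members left the same 15 called.

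As the lost modification sits on leucine and serine tRNAs, the content of these codons is given as a description. Coding sequences of members had a median of 195 codons, against 477 in tested protein-coding genes. Leucine made up a median of 10.2% of codons (against 9.75%) and serine 5.38% (against 7.57%). The codons UUA, UUG, CUU and CUA made up a median of 47.1% of leucine codons in members and 41.7% in tested protein-coding genes. Median leucine content was 8.52% in the 12 members called higher, 12.1% in the 3 called lower and 10.3% in the 63 not called. Across members, the log2 fold change had a Pearson r of -0.24 with leucine content, 0.20 with serine content, 0.12 with the share of these 4 leucine codons and -0.29 with GC content (n = 78, no test, all from the same libraries). Among 12609 tested protein-coding genes the r with leucine content was -0.06 and that with serine content -0.003. The r was 0.13 with the share of the 4 leucine codons (12606 genes) and -0.15 with GC content (12685 genes). Values over members include the 3 called lower, whose leucine content ran from 11.0% to 12.6% and GC content from 49.5% to 64.6%.

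Of 5 subunit genes with other names none was called, against 26.7% of all tested genes. DAP3, AURKAIP1, PTCD3, CHCHD1 and GADD45GIP1 had log2 fold changes between -0.01 and 0.06, and the closest to a call was DAP3 at 0.05 (SE 0.0407, limma-voom adjusted p = 0.351). AURKAIP1 was called in 2 of 17 alternatives, both with the GC and length trend removed. Of 29 genes for ribosome assembly and rRNA maturation in mitochondria 6 were called (20.7%, against 26.7% of all tested genes). All 6 were higher, against 13.7% of all tested genes called higher. Under TMM library sizes 4 were higher (13.8%, against 11.97%) and 1 was lower (3.45%, against 13.9%). YBEY, an endoribonuclease needed for the small subunit, was at 5.02 ± 0.552 CPM in WT and 8.86 ± 0.659 CPM in KO (log2 fold change 0.79, SE 0.100, limma-voom adjusted p = 0.000298). NGRN, which acts on the large rRNA, MALSU1, a large subunit assembly factor, and MTERF4, which acts with an rRNA methyltransferase, had log2 fold changes of 0.23, 0.28 and 0.25. These 4 calls were kept in all 17 alternatives, whereas those of MTG2 and MRM2 (0.16 and 0.19) were lost under TMM, edgeR and DESeq2. RPUSD3, a pseudouridine synthase at -0.13, was called under these 3 and with the replicate block, where 8 genes of the list were higher and 1 lower. MTG2, MRM2 and RPUSD3 were named after their values were seen.

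Of 18 translation factors 5 were called (27.8%, against 26.7% of all tested genes), all higher (against 13.7% called higher). GUF1, a GTPase of elongation, rose by 0.32 on the log2 scale and MTRF1L, a release factor, by 0.29, and both calls were kept in all 17 alternatives. GFM1, the elongation factor G, and PDF, the peptide deformylase, had 0.23 and 0.18, and SLIRP, an mRNA-binding protein named after its value was seen, had 0.24. TMM library sizes left 3 of the 5 called (16.7%, against 25.8% of all tested genes called and 11.97% called higher). Of the 11 regulators tested 4 were called (36.4%, against 26.7% of all tested genes), 1 higher (9.09%, against 13.7%) and 3 lower (27.3%, against 13.0%). TFAM was higher (0.17), and PPARGC1A (-0.58), MYC (-0.31) and POLRMT (-0.16) were lower. The call of POLRMT was kept in 9 of 17 alternatives. NRF1, GABPA and YY1, whose motif letters are described above, were not called (limma-voom adjusted p = 0.725, 0.0911 and 0.319).

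Of 15 mitochondrially encoded genes, which the ribosome translates or is built from, 6 were called (40.0%, against 26.7% of all tested genes), 5 of them higher (33.3%, against 13.7%). Quantile normalization gives genes of equal rank the same value, so changes of the most abundant genes can be hidden in this fit. MT-CO2, MT-ND4 and MT-CO3 had log2 fold changes of -2.3e-05, 1.8e-15 and 8.6e-16 in it. Under TMM library sizes they had -0.004, 0.105 and 0.041, and none was called. The share of 40.0% is thus limited by the scale. Under TMM library sizes 3 of the 15 were called (20.0%, against 25.8% of all tested genes), all higher (against 11.97% called higher). The complex I genes MT-ND3, MT-ND2 and MT-ND1 rose by 0.53, 0.38 and 0.24 on the log2 scale and kept their calls in all 17 alternatives. MT-ATP6 of ATP synthase was at 0.20, MT-ND6 at 0.26, and MT-CYB of complex III, the one gene called lower after quantile normalization, at -0.17 (the last 2 named after their values were seen). MT-CO1, also named after its value was seen, was at -0.09 and not called (limma-voom adjusted p = 0.330). Under TMM library sizes it was at -0.14 (limma-voom adjusted p = 0.0904). In edgeR (adjusted p = 0.0334) and DESeq2 MT-CO1 was called lower. The call of MT-CYB was lost under TMM library sizes (limma-voom adjusted p = 0.186) and library sizes alone (0.327), that of MT-ATP6 under TMM (0.0550), and that of MT-ND6 under TMM (0.0638), edgeR (0.0672) and DESeq2. Both rRNAs, MT-RNR1 and MT-RNR2, were at 43.4 ± 23.6 and 53.1 ± 26.1 CPM in WT and at 27.8 ± 6.55 and 31.8 ± 4.16 CPM in KO after depletion, and were not called. With the replicate block MT-RNR2, at a log2 fold change of -0.66, was called (limma-voom adjusted p = 0.0227), as it was in edgeR (0.0414). Cytosolic ribosomal protein genes, the most similar other set, had 5 of 77 called (6.49%, against 26.7% of all tested genes). Of these 1 was higher (1.30%, against 13.7%) and 4 were lower (5.19%, against 13.0%), with a median log2 fold change of -0.02 over the 77. No test of the difference between these lists was made.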

How the data were processed

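Total RNA-seq of 6 HEK-293T libraries was used. STAR alignments to GRCh38 were turned by the authors into RSEM expected counts per gene, and these unscaled, partly fractional estimates are what was deposited. The study names GENCODE 46. Gene positions, lengths and codons here came from GENCODE 44, which held 99.3% of the IDs, and promoters from RefSeq. The 15088 genes reaching 1 CPM in 3 or more libraries were tested by limma-voom (limma 3.58.1, R 4.3.3) after quantile normalization, genotype being the only term. Tests were two-sided, with Benjamini-Hochberg adjustment over all of them and a threshold of 0.05. CPM values came from the deposited counts and total counts, and 1 CPM was 32.2 to 44.1 counts. Alternatives were TMM or library sizes alone, other filters, quality weights, a replicate block, GC and length correction, pseudogene counts added, edgeR 4.0.16 and DESeq2 1.42.0 on rounded counts, and each library left out. The fit was tested on simulated data.

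Deviations from the genotype means correlated at 0.206, 0.155 and 0.134 for libraries with replicate numbers 1, 2 and 3 (11717 genes) and at -0.161 to 0.0820 otherwise. Over the 78 members these were 0.456, 0.398 and 0.107, but WT replicate 3 had 0.331 with KO replicate 2. No label says what the numbers mark, so a pairing was inferred from these same counts and is uncertain. Results with the replicate block are therefore given only as an alternative. Called members were all named, together with those at the 3 highest and 3 lowest levels per kilobase, the 3 largest changes not called, the MRPS18 paralogs, MRPS36 and up to 4 genes of each further list with the smallest adjusted p. Members and lists were chosen with earlier results of these data known.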

Additional observations from a re-analysis of the deposited data

How the results depend on the processing

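Under the alternative settings 6 to 29 members were called, and no called member changed sign. Without a CPM filter 9 were called (7 higher), or 11.5% against 10.1% of all genes. With the replicate block there were 23 (19 higher), or 29.5% against 35.1%, and with the block and the GC and length trend removed 29 (25 higher), or 37.2% against 38.0%. At an adjusted p below 0.01 there were 6, a count given here without the share of all tested genes. Leaving out 1 library gave 6 to 14 calls (7.69% to 17.9%, against 17.65% to 28.1% of all tested genes), 4 to 12 of them higher. There were 6 (4 higher) without KO replicate 2 and 8 (6 higher) without KO replicate 3, where fewer libraries were fitted. For the other changes the cause was not tested. Calls of MRPS34, MRPL28, MRPS33, MRPS14, MRPS11 and MRPL42 were kept in all 17 alternatives. All 15 called members were also called under the replicate block, 12 of them under TMM and under edgeR, and 11 under DESeq2. The median log2 fold change of members lay between 0.013 (without WT replicate 1) and 0.095 (without WT replicate 2). The median SE of a member's log2 fold change was 0.059, and the precision beyond that is limited by 3 libraries a group.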
